A study of Mus musculus with 12 samples.

Results

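The cytosolic heat shock chaperones described here are 10 genes chosen by name: the heat shock factor Hsf1, the Hsp70 genes Hspa1a, Hspa1b and Hspa8, the Hsp110 gene Hsph1, the Hsp90 gene Hsp90aa1, the J protein gene Dnajb1, the co-chaperone gene Bag3, and the small heat shock protein genes Hspb1 and Cryab. They are 10 of the 25514 genes matched in the count files, and all 10 were among the 12971 genes with enough counts to be tested. Each gene is represented by its annotated transcript with the highest total count over all libraries.

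Heat shock proteins hold unfolded proteins in solution and help them to fold. Hsp70 takes up exposed stretches of a protein, J proteins bring it clients and start its ATP cycle, Hsp110 and Bag proteins release the nucleotide, and Hsp90 finishes the folding of kinases and steroid receptors. Small heat shock proteins bind unfolding clients without ATP. Hsf1 is held inactive by chaperones in unstressed cells and, when freed by heat or misfolded protein, forms trimers that bind repeats of the letters NGAAN, the heat shock element. In kidney proximal tubule, the segment that is most exposed to ischaemia and toxins, inducible Hsp70 and the small heat shock proteins are known for their rise after injury.

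The cells were proximal tubule (PT) cells from male mice with the Immorto-mouse transgene, a temperature-sensitive T antigen driven by an interferon-inducible promoter, and floxed alleles of Tgfbr2, the gene of the TGF-β type II receptor (TβRII). The labels give the genotypes as H2ts6;Tgfbr2fl/fl, here TβRII flox/flox, and H2ts6;Tgfbr2-/-, here TβRII-/-. The latter were made from floxed cells in culture with an adenovirus that carries Cre. All cells were grown at 33 °C with 2.5% serum, hydrocortisone, insulin, transferrin, selenium, triiodothyronine and interferon gamma. They were moved to 37 °C 5 days before the experiment, and the methods of the study add that interferon gamma was then removed. There were 3 libraries in each of 4 groups: untreated TβRII flox/flox, untreated TβRII-/-, and each genotype after 24 h of H2O2. The label gives the dose as 200 mM, whereas the methods of the study give the unit as μM. Untreated cells were kept in complete medium and H2O2 was given in serum-free medium. The methods of the study also describe 24 h of serum starvation before the H2O2. An effect of H2O2 can therefore not be told apart from that of serum withdrawal. The loss of any other component of the complete medium was not tested. Likewise, an effect of TβRII cannot be told apart from other differences between the floxed and the Cre-treated cells. As a general rule for in vitro work the methods speak of independent experiments or biological replicates, and neither they nor the labels say which of these the 3 libraries of a group were, so p-values measure the spread between these libraries, which may be technical.

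Gene counts summed to between 15870155 and 20857618 per library. The first principal component held 81.1% and the second 8.82% of the variance of the libraries, and replicates differed by more than sampling noise. Tgfbr2 had a mean of 8393 ± 843 normalized counts (SD, n = 3) in untreated TβRII flox/flox and of 6605 ± 220 in untreated TβRII-/- PT cells. The log2 difference was -0.35 untreated and -0.92 with H2O2. The count covers the whole transcript, including parts outside the deletion, and so is no check of the deletion itself. Of 12 proximal tubule markers 7 passed the filter, led by Lrp2, Aqp1 and Pax8, and their summed level was 27441 to 33209 in untreated TβRII flox/flox against 21054 to 22512 in untreated TβRII-/- PT cells. It was 35108 to 37913 and 21442 to 22890 in the same genotypes with H2O2. The leading markers did not move together. In floxed cells without and with H2O2 mean Aqp1 was 7103 and 14611, Lrp2 17280 and 17634, and Pax8 5223 and 4182. Between untreated genotypes Pax8 was higher in TβRII-/- PT cells (6262), whereas Lrp2 (11016) and Aqp1 (4421) were lower. The remaining markers that passed were lower in mean too. Untreated floxed and TβRII-/- PT cells had 123 and 52.0 for Cubn, and 41.7 and 19.8 for Slc5a12. For Ggt1 they had 75.8 and 7.61, and for Slc5a2 14.8 and 0. Pax8 was thus the only one of the 7 that was higher. Slc22a6, an organic anion transporter that defines proximal tubule in vivo, was at 0 in every library, and Slc34a1, Slc22a8 and Hnf4a did not exceed 1.99 normalized counts in any. Of 6 distal nephron markers none passed the filter (summed level 1.03 to 10.9). Of 6 fibroblast and stroma markers 3 passed, with Lum at 0 and a summed level of 53.8 to 67.3 in untreated TβRII flox/flox, 75.4 to 96.3 with H2O2, 16.5 to 29.3 in untreated TβRII-/- and 40.6 to 50.7 with H2O2. Of 6 macrophage and leukocyte markers 2 passed (Cd68 and Cd14), with Adgre1 at 0 and sums of 556 to 602, 529 to 612, 399 to 408 and 490 to 519 in the same order of groups. Of 5 endothelial markers Kdr alone passed, and the sums were 127 to 138, 22.7 to 26.4, 465 to 586 and 39.3 to 65.6. Markers within a sum could move apart. In untreated TβRII-/- against untreated floxed cells mean Cd68 was higher (234 against 136) and Cd14 lower (163 against 438). Likewise Dcn was higher (5.51 against 1.46), and Col1a1 (14.3 against 42.0) and Pdgfrb (2.41 against 16.3) were lower. The part of these markers in the results on chaperones was not tested.

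Promoter sequences are shown for 3 of the genes that were higher in TβRII-/- PT cells, because a paired heat shock element lies within them. RefSeq windows of GRCm38.p6, from 250 bases before to 50 bases after a transcription start, were at hand for 6 of the 10 genes, and none for Hsf1, Hspa8, Hsp90aa1 and Cryab. They were searched for the paired elements GAANNTTC and TTCNNGAA, each of which reads the same on both strands. At least 1 match was found for 5 of the 6 genes, Dnajb1 being the exception, and in 15.1% of the 32851 windows of the table (GAANNTTC in 7.86%, TTCNNGAA in 8.52%). A match describes the letters and is not a binding site that was measured. The 150 bases before the start of Hspa1a (chr17:34972157-34972306, minus strand), of Hspa1b (chr17:34959239-34959388, minus strand) and of Hspb1 (chr5:135887769-135887918, plus strand) read as follows, 5′ to 3′, with the paired elements in capitals.
Hspa1a: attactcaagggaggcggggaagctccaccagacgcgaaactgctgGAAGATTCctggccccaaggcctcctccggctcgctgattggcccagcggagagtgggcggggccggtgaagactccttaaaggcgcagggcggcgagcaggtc
Hspa1b: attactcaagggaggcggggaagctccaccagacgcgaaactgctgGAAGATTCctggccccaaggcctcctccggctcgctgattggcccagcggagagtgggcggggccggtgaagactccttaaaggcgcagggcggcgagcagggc
Hspb1: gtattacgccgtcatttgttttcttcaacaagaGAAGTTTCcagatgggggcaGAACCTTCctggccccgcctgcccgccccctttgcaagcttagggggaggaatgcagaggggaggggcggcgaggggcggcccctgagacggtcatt

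The stretches of Hspa1a and Hspa1b differed at 1 base of 150, and their whole windows at 4 of 300. In both, the element began at position -104 from the start, and in Hspb1 elements began at -117 and -97. Hsph1 (start at 149636336 on chromosome 5) held TTCTCGAA at -33 and a run of 3 alternating elements, TTCTGGAAAGTTC, at 37 bases after its start. Such a run (TTCNNGAANNTTC or GAANNTTCNNGAA) was in 0.603% of all windows. Bag3 held GAAGTTTC at 43 bases after its start.

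The genes differed widely in level, given here as normalized counts per kb of transcript per M counts. In TβRII flox/flox PT cells without treatment Cryab was highest at 704 ± 36.4 (SD, n = 3), before Hspa8 at 290 ± 11.6 and Hsp90aa1 at 155 ± 15.8. Bag3 at 37.1 ± 0.337, Dnajb1 at 19.5 ± 2.31 and Hsf1 at 16.3 ± 1.72 formed the middle. Hsph1 at 9.40 ± 0.809 and Hspb1 at 9.24 ± 0.498 followed. Inducible Hsp70 was lowest, with Hspa1b at 1.40 ± 0.142 and Hspa1a at 0.309 ± 0.0727. In that order Hsph1 and Hspb1 were the only neighbours whose libraries overlapped. In untreated TβRII-/- PT cells Hspa8 (272 ± 11.3) and Hsp90aa1 (256 ± 5.02) overlapped, as did Dnajb1 (20.2 ± 0.974) and Bag3 (18.5 ± 1.18), Bag3 and Hsph1 (17.3 ± 0.302), and Hspb1 (15.5 ± 0.817) and Hsf1 (14.4 ± 0.642). With H2O2 Cryab stayed the highest in each genotype, at 297 ± 13.0 in TβRII flox/flox and 452 ± 15.7 in TβRII-/- PT cells. Hspa1a stayed the lowest, at 0.302 ± 0.0481 and 0.756 ± 0.155 in the same order. The Hspa8 transcript used is an annotated retained-intron form of 3158 bases. The coding form of 2394 bases held 99.6% of its total count, so the level of Hspa8 per kb depends on that choice. Of the 100-base stretches, 56.5% of Hspa1a, 49.9% of Hspa1b and 55.4% of Hspb1 also occur in other genes. Parts of Hsf1, Hspa8 and Hsp90aa1 do so too. How such reads were counted is not given in the sources used here, so these levels and their order are uncertain.

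**Figure D1:**
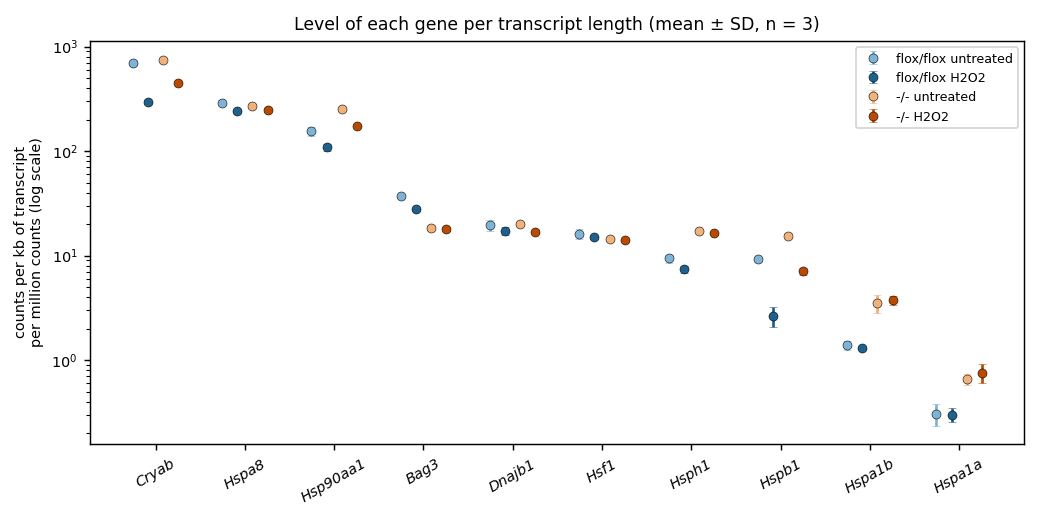
Level of each gene as normalized counts per kb of transcript per M counts (log axis), as mean and SD of 3 libraries, for the 4 groups. Cryab, Hspa8 and Hsp90aa1 lie above 100 in every group, and Hspa1a lies below 1 in every group.

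The comparison of genotypes asks what differs in cells without TβRII. In untreated cells, 5 of the 10 genes were higher in TβRII-/- PT cells (Hspa1a, Hspa1b, Hsph1, Hsp90aa1 and Hspb1), 2 were lower (Bag3 and Hsf1) and 3 were not called (Hspa8, Dnajb1 and Cryab). Calls rest on edgeR's quasi-likelihood test at 0.05 after Benjamini-Hochberg adjustment over all 12971 genes. Of those genes, 33.3% were called higher and 31.4% lower, so the genotypes differed widely outside the chaperones too. The median log2 fold change of the 10 genes was 0.41, against 0.01 over all genes tested. In these bulk samples, fewer cells of a type and less RNA per cell cannot be told apart. With H2O2 in both genotypes, 6 were higher in TβRII-/- PT cells (the same 5 and Cryab) and 1, Bag3, was lower, where 35.1% of all genes were called higher and 31.3% lower. The median was 0.63, against 0.02 over all genes.

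The comparison of H2O2 with no treatment sets cells given H2O2 in serum-free medium against cells in complete medium, in each genotype. Effects of oxidant and of serum withdrawal cannot be told apart in it. Of the 10 genes, 0 were called higher with H2O2 in either genotype by edgeR, also at an unadjusted p under 0.05, and 0 by DESeq2. In TβRII flox/flox PT cells 6 were lower (Hspb1, Cryab, Hsp90aa1, Bag3, Hsph1 and Hspa8), where 20.5% of all genes were called lower and 21.0% higher. In TβRII-/- PT cells 4 were lower (Hspb1, Cryab, Hsp90aa1 and Dnajb1), where 19.1% of all genes were called lower and 20.5% higher. The median log2 fold change of the 10 genes was -0.29 in TβRII flox/flox and -0.11 in TβRII-/- PT cells, against 0.01 and 0.02 over all genes. The H2O2 effects differed between genotypes, by the interaction term, for Cryab, Hspb1 and Bag3, each less negative in TβRII-/- PT cells. Over all genes 3.90% had a higher and 6.28% a lower H2O2 effect in TβRII-/- PT cells. These comparisons share libraries, each group entering several, so they are not separate experiments.

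**Figure D2:**
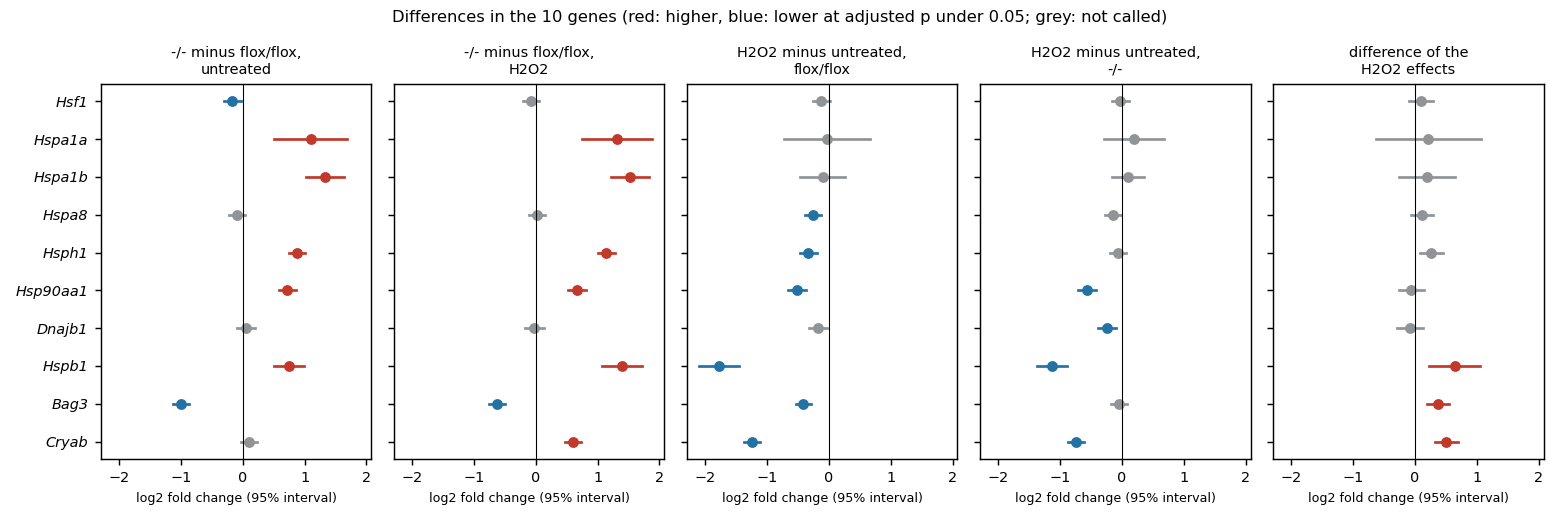
Log2 fold change with its 95% interval for each of the 10 genes in the 5 comparisons, red and blue marking genes called higher and lower and grey those not called. The panels of TβRII-/- against TβRII flox/flox hold 5 red points untreated and 6 with H2O2, and the panels of H2O2 against untreated hold blue and grey points only.

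Hsf1, the transcription factor that drives the heat shock response, had 1504, 1567 and 1275 normalized counts (counts scaled to the mean library of 17351835) in untreated TβRII flox/flox and 1351, 1251 and 1253 in untreated TβRII-/- PT cells. Replicate 3 of the floxed cells lay within the range of the TβRII-/- libraries. The log2 fold change was -0.17 (95% interval -0.31 to -0.04, adjusted p = 0.0237 in edgeR's quasi-likelihood test). The call was lost without floxed replicate 1 (adjusted p = 0.0754) or 2 (0.143), without TβRII-/- replicate 2 (0.0794) or 3 (0.0782), with only the untreated groups in the fit (0.0512) and with scaling by library totals alone (0.310). With H2O2 Hsf1 had 1305, 1390 and 1302 in TβRII flox/flox and 1298, 1234 and 1255 in TβRII-/- PT cells. These did not overlap, yet the log2 difference of -0.08 (-0.21 to 0.06) was not called. The H2O2 effect was -0.12 (-0.26 to 0.02) in TβRII flox/flox and -0.03 (-0.16 to 0.11) in TβRII-/- PT cells, neither called. Without untreated floxed replicate 3 the first of these was -0.20 and was called (adjusted p = 0.0141). Of the 100-base stretches of the Hsf1 transcript, 40.1% also occur in transcripts of other genes, mostly Dgat1 on the opposite strand. Whether counting used strand is not given in the sources used here, so reads of that stretch may belong to either gene.

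Inducible Hsp70, encoded by the neighbouring intronless genes Hspa1a and Hspa1b, was the most raised of the 10 genes in untreated TβRII-/- PT cells. Hspa1b had 62.1, 75.7 and 66.7 normalized counts in untreated TβRII flox/flox and 204, 169 and 140 in untreated TβRII-/- PT cells. The groups lay well apart, with a fold change of 2.50 (log2 1.32, 95% interval 1.01 to 1.63, adjusted p = 4.22e-09). With H2O2 the libraries had 63.9, 64.0 and 61.9 in TβRII flox/flox and 181, 164 and 202 in TβRII-/- PT cells, again without overlap, at a fold change of 2.87 (log2 1.52, 1.21 to 1.83, adjusted p = 1.61e-10). The difference of Hspa1b with H2O2 was -0.10 (-0.47 to 0.26) in TβRII flox/flox and 0.09 (-0.17 to 0.35) in TβRII-/- PT cells on the log2 scale, neither called.

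Hspa1a had low counts, at 11.6, 17.8 and 18.3 normalized counts in untreated TβRII flox/flox and 38.7, 32.9 and 30.6 in untreated TβRII-/- PT cells. The raw counts behind these values were 11 to 17 and 32 to 37, and the groups did not overlap. The fold change was 2.14 (log2 1.10, 95% interval 0.50 to 1.69, adjusted p = 0.00144). With H2O2 the libraries had 18.3, 13.4 and 14.9 in TβRII flox/flox and 48.0, 33.0 and 35.8 in TβRII-/- PT cells, at a fold change of 2.48 (log2 1.31, 0.74 to 1.88, adjusted p = 0.000128). The H2O2 effect was -0.03 (-0.72 to 0.67) in TβRII flox/flox and 0.19 (-0.30 to 0.67) in TβRII-/- PT cells, and intervals of this width leave changes of either sign possible. Of the 100-base stretches, 56.5% of Hspa1a also occur in other genes, mostly Hspa1b, and 49.9% of Hspa1b occur in Hspa1a. How the authors counted reads that fit both is not given in the sources used here. The level of each gene and the split between both are therefore uncertain. With the counts of Hspa1a and Hspa1b added together, a setting chosen after seeing the data, the pair was higher in TβRII-/- PT cells by 1.28 untreated and 1.48 with H2O2 on the log2 scale, and both differences were called.

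Hspa8, the constitutive Hsp70 of the cytosol, had 15295, 15793 and 16559 normalized counts in untreated TβRII flox/flox and 14173, 15136 and 15331 in untreated TβRII-/- PT cells. The groups overlapped by a narrow margin, and the log2 difference of -0.09 (95% interval -0.22 to 0.04) was not called. Libraries with H2O2 had 13670, 12657 and 13567 in TβRII flox/flox and 14123, 13266 and 12989 in TβRII-/- PT cells, a log2 difference of 0.02 (-0.11 to 0.15) that was not called. Scaled by library totals alone it was 0.17 and called (adjusted p = 0.0225), where the median of all genes was also 0.17. Hspa8 fell with H2O2 in TβRII flox/flox PT cells by 0.26 on the log2 scale (interval -0.39 to -0.13, adjusted p = 0.00163). The difference in TβRII-/- PT cells was -0.14 (-0.27 to -0.02, adjusted p = 0.0695), which was not called although the groups did not overlap. It was called by DESeq2 (adjusted p = 0.0169), on sums over transcripts (0.0334), with only these groups in the fit (0.0120), and without any 1 of untreated floxed replicates 1, 2 and 3 or of H2O2-treated floxed replicates 1 and 2 (0.0168 to 0.0471). The effects were not shown to differ between genotypes (interaction 0.11, -0.07 to 0.29). Stretches of 100 bases that also occur in other genes, mostly Gm15459, made up 31.6% of the transcript.

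Hsph1, the Hsp110 that acts as nucleotide exchange factor of Hsp70, had 1004, 924 and 1097 normalized counts in untreated TβRII flox/flox and 1819, 1857 and 1883 in untreated TβRII-/- PT cells. Each TβRII-/- library was above each floxed one, at a fold change of 1.84 (log2 0.88, 95% interval 0.74 to 1.01, adjusted p = 2.20e-13). H2O2-treated cells had 868, 789 and 744 in TβRII flox/flox and 1734, 1824 and 1747 in TβRII-/- PT cells, at a fold change of 2.21 (log2 1.14, 1.01 to 1.28, adjusted p = 3.81e-16). With H2O2, Hsph1 fell in TβRII flox/flox PT cells by 0.33 on the log2 scale (-0.47 to -0.19, adjusted p = 0.000264), whereas the difference in TβRII-/- PT cells was -0.07 (-0.19 to 0.06) and was not called. The interaction of 0.26 (0.07 to 0.46) had an adjusted p of 0.0659 and missed the threshold, which it passed without untreated floxed replicate 2 (0.0416), without H2O2-treated floxed replicate 1 (0.0473) and with library totals alone (0.0269). No 50-base stretch of its transcript occurs in another gene.

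The genes around Hsph1 had a median difference close to its own, and their spread was not computed. Hsph1 lies on chromosome 5 at 149616843 to 149636498 (RefSeq, GRCm38.p6), and its 22 nearest tested genes had a median log2 difference of 0.85 between untreated genotypes, close to the 0.88 of Hsph1 itself. The median over all tested genes of chromosome 5 was 0.27. For the other raised genes the 24 nearest genes had medians of -0.01 (Hspa1a), -0.00 (Hspa1b), -0.01 (Hsp90aa1) and 0.20 (Hspb1), and for Bag3 the median was -0.17. Hspb1 lies on chromosome 5 too, whose median was 0.27. The neighbours of Hsf1 had a median of 0.38, against 0.36 over all tested genes of chromosome 15, while Hsf1 itself was at -0.17. The part of the surrounding region in the difference of Hsph1 was not tested.

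Dnajb1, the J protein that works with inducible Hsp70, had 1114, 1114 and 1359 normalized counts in untreated TβRII flox/flox and 1290, 1258 and 1175 in untreated TβRII-/- PT cells. The groups overlapped, with a log2 difference of 0.05 (95% interval -0.09 to 0.20). The H2O2-treated libraries had 1155, 1027 and 999 in TβRII flox/flox and 1062, 1066 and 1004 in TβRII-/- PT cells, and the difference was -0.02 (-0.17 to 0.13). Dnajb1 fell with H2O2 in TβRII-/- PT cells by 0.25 on the log2 scale (-0.39 to -0.10, adjusted p = 0.00653). In TβRII flox/flox PT cells the difference was -0.17 (-0.32 to -0.02, adjusted p = 0.0576) and was not called. It was called without a filter on low counts (0.0323), without untreated floxed replicate 1 (0.0259) or 2 (0.0358), and without H2O2-treated floxed replicate 1 (0.0223). The interaction was -0.08 (-0.28 to 0.13).

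Bag3, which links Hsp70 and small heat shock proteins to selective autophagy, was lower in TβRII-/- PT cells under both conditions. It had 1667, 1689 and 1697 normalized counts in untreated TβRII flox/flox and 848, 784 and 891 in untreated TβRII-/- PT cells. The groups lay far apart, with Bag3 lower by 2.0-fold in TβRII-/- PT cells (log2 -1.0, 95% interval -1.13 to -0.87, adjusted p = 2.64e-15). Under H2O2 there were 1315, 1215 and 1259 in TβRII flox/flox and 846, 827 and 772 in TβRII-/- PT cells, lower by 1.55-fold (log2 -0.63, -0.76 to -0.50, adjusted p = 2.17e-10). Bag3 fell with H2O2 in TβRII flox/flox PT cells by 0.42 on the log2 scale (-0.54 to -0.29, adjusted p = 2.22e-06). The difference in TβRII-/- PT cells was -0.04 (-0.18 to 0.09), and the interaction of 0.37 (0.19 to 0.55) was called at an adjusted p of 0.00635.

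Hsp90aa1, the stress-inducible cytosolic Hsp90, had 8991, 8896 and 10613 normalized counts in untreated TβRII flox/flox and 15320, 15852 and 15853 in untreated TβRII-/- PT cells. The groups did not overlap, at a fold change of 1.65 (log2 0.72, 95% interval 0.58 to 0.87, adjusted p = 1.29e-10). After H2O2 there were 7268, 6116 and 6624 in TβRII flox/flox and 10664, 10839 and 10159 in TβRII-/- PT cells. Each genotype was lower than without H2O2, and TβRII-/- PT cells were again higher, at a fold change of 1.58 (log2 0.66, 0.52 to 0.81, adjusted p = 8.67e-10). The fall with H2O2 was 0.51 in TβRII flox/flox (-0.65 to -0.37, adjusted p = 8.19e-07) and 0.57 in TβRII-/- PT cells (-0.71 to -0.43, adjusted p = 9.75e-08) on the log2 scale, with an interaction of -0.06 (-0.26 to 0.14). Of its 100-base stretches, 44.1% also occur in other genes, mostly Gm12346.

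The small heat shock proteins had the largest falls with H2O2 of the 10 genes. Hspb1 (Hsp27 or Hsp25), which also binds actin, had 142, 142 and 156 normalized counts without and 40.6, 52.7 and 34.4 with H2O2 in TβRII flox/flox PT cells. These groups were far apart, with Hspb1 lower by 3.43-fold (log2 -1.78, 95% interval -2.1 to -1.46, adjusted p = 9.67e-11). In TβRII-/- PT cells it went from 246, 260 and 235 to 106, 111 and 121, lower by 2.19-fold (log2 -1.13, -1.37 to -0.89, adjusted p = 4.42e-09). The level of TβRII-/- PT cells with H2O2 was thus below that of untreated floxed cells in each library. Between genotypes Hspb1 was higher in TβRII-/- PT cells by 1.68-fold untreated (log2 0.75, 0.51 to 0.99, adjusted p = 1.49e-06) and by 2.63-fold with H2O2 (log2 1.39, 1.07 to 1.72, adjusted p = 3.53e-09). The interaction of 0.64 (0.23 to 1.05, adjusted p = 0.0362) lost its call with DESeq2 (adjusted p = 0.0526), on sums over transcripts (0.0596), and in 9 of the 12 fits that left out a library (0.0504 to 0.165). It was kept only on leaving out untreated floxed replicate 1, H2O2-treated floxed replicate 2 or untreated TβRII-/- replicate 2. Stretches of 100 bases shared with other genes, all with Hsp25-ps1, made up 55.4% of the transcript.

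Cryab (αB-crystallin), a small heat shock protein that binds desmin and actin filaments, had 20094, 22184 and 21750 normalized counts in untreated TβRII flox/flox and 22554, 23073 and 22850 in untreated TβRII-/- PT cells. The ranges did not overlap, yet the log2 difference of 0.10 (95% interval -0.03 to 0.23) was not called. Scaled by library totals alone it was 0.19 and called (adjusted p = 0.00970), where the median of all genes was 0.10. Libraries with H2O2 had 9380, 8592 and 9028 in TβRII flox/flox and 14232, 13537 and 13324 in TβRII-/- PT cells. Cryab was here higher in TβRII-/- PT cells by 1.52-fold (log2 0.61, 0.48 to 0.74, adjusted p = 6.81e-10). It was lower with H2O2 by 2.37-fold in TβRII flox/flox (log2 -1.25, -1.38 to -1.11, adjusted p = 2.92e-16) and by 1.67-fold in TβRII-/- PT cells (log2 -0.74, -0.87 to -0.61, adjusted p = 8.75e-11), and these falls differed (interaction 0.51, 0.33 to 0.69, adjusted p = 0.000281). The transcript of Cryab shares 11.4% of its 100-base stretches with other genes, mostly its neighbour Hspb2.

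**Figure D3:**
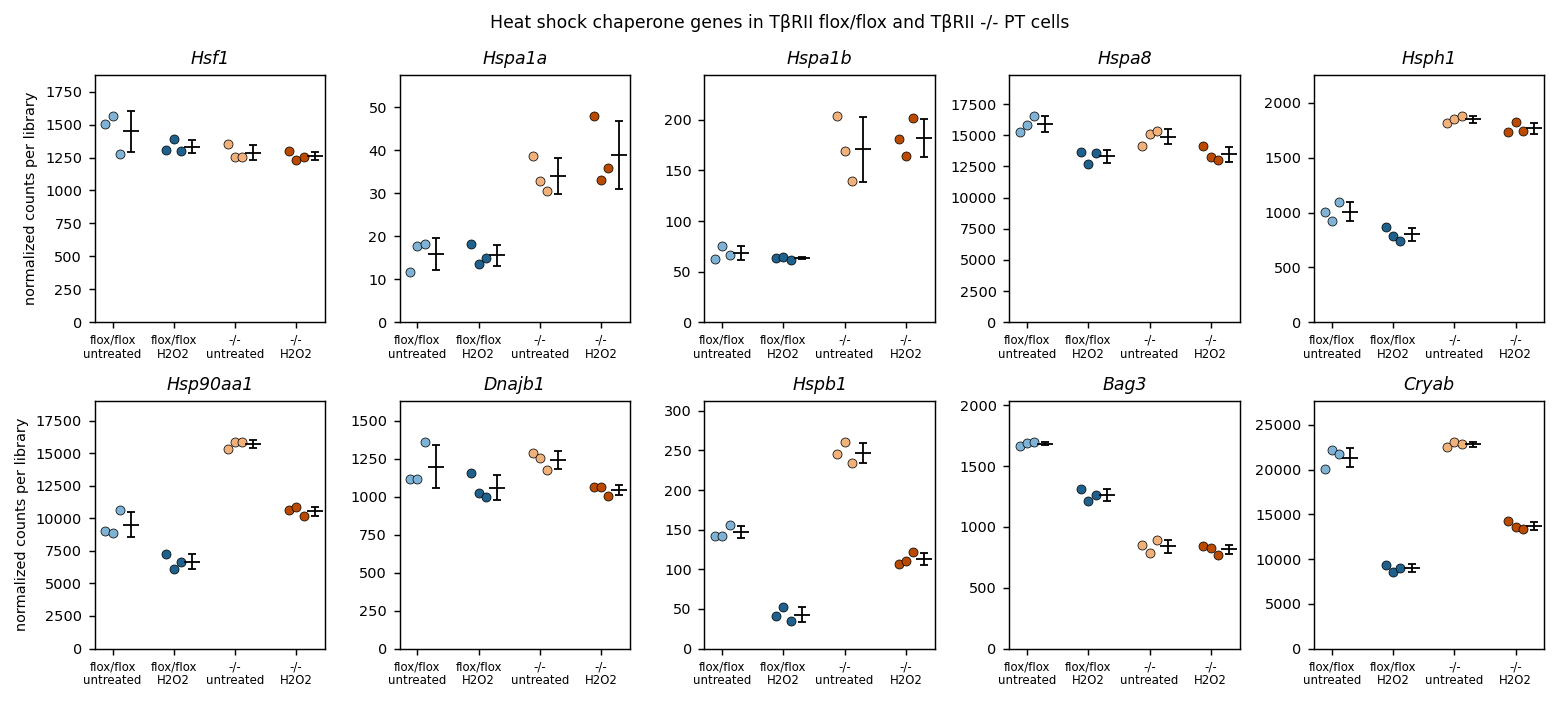
Normalized counts of the 10 genes in each of the 12 libraries (points), with the mean and SD of each group of 3 beside them; each panel starts at 0 and has its own scale. Hspa1a, Hspa1b, Hsph1, Hsp90aa1 and Hspb1 are higher in TβRII-/- than in TβRII flox/flox PT cells under both conditions, Bag3 is lower, and Hspb1 and Cryab have their lowest libraries in TβRII flox/flox PT cells with H2O2.

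Other chaperones were described by 8 lists, whose counts and medians are set against those of all genes. In TβRII-/- PT cells 33.3% of all genes were called higher and 31.4% lower untreated, and 35.1% and 31.3% with H2O2. Of 11 other cytosolic Hsp70, Hsp110 and J protein genes tested, 5 were higher and 5 lower in untreated TβRII-/- PT cells, with a median log2 difference of -0.11. Dnaja4, a J protein that works with Hsp70, was lowest at -1.24 (SE 0.15), and Hspa14, an Hsp70 bound to ribosomes, was highest at 0.57 (SE 0.07). With H2O2 the list had 5 higher and 4 lower in TβRII-/- PT cells, among them Dnaja4 at -1.07 (SE 0.14) and Hspa2, an Hsp70 best known from testis, at 0.67 (SE 0.08). Genes called in both directions were thus common in the list as over all genes. Of the 11, 5 fell with H2O2 in TβRII flox/flox and 4 in TβRII-/- PT cells, against 20.5% and 19.1% of all genes. The J protein gene Dnajb4 fell by 0.64 (SE 0.06) and 0.38 (SE 0.06) respectively, Hspa4l by 0.27 (SE 0.06) in TβRII flox/flox and Hspa14 by 0.24 (SE 0.07) in TβRII-/- PT cells, all on the log2 scale.

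Of 10 genes of Hsp90 and its co-chaperones other than Hsp90aa1, 2 were higher and 4 lower in untreated TβRII-/- PT cells (median 0.00), and 3 and 3 with H2O2 (median -0.02), against the 33.3% and 31.4% and the 35.1% and 31.3% of all genes. With H2O2, 8 fell in TβRII flox/flox (median -0.27) and 6 in TβRII-/- PT cells (median -0.21), against 20.5% and 19.1% of all genes. Fkbp5, an Hsp90 co-chaperone of steroid receptors and a known target of glucocorticoids, changed most. It was higher in TβRII-/- PT cells by 0.44 (SE 0.07) untreated and 0.53 (SE 0.07) with H2O2, and changed with H2O2 by -1.24 (SE 0.07) and -1.15 (SE 0.07) in TβRII flox/flox and TβRII-/- PT cells. Ahsa2 was lower in TβRII-/- PT cells, at -0.41 (SE 0.09) untreated and -0.45 (SE 0.09) with H2O2. Ahsa1, which speeds the ATPase of Hsp90, fell with H2O2 by 0.45 (SE 0.06) in TβRII flox/flox, and Cacybp by 0.52 (SE 0.08) in TβRII-/- PT cells. Hsp90ab1, the other cytosolic Hsp90 gene, is named here after its values were seen. It was lower in TβRII-/- PT cells, at -0.33 (SE 0.07) untreated and -0.15 (SE 0.07) with H2O2. Its mean was 35165 normalized counts in untreated floxed and 27945 in untreated TβRII-/- PT cells, against 9500 and 15675 for Hsp90aa1.

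Of 7 other small heat shock proteins listed, 3 were tested. Hspb2, the neighbour of Cryab, was higher in TβRII-/- PT cells by 0.84 (SE 0.17) untreated and 0.84 (SE 0.18) with H2O2. Hspb8, the partner of Bag3, fell with H2O2 by 1.0 (SE 0.11) in TβRII flox/flox and by 0.77 (SE 0.10) in TβRII-/- PT cells, and was higher in TβRII-/- PT cells by 0.40 (SE 0.12) with H2O2. Hspb6 fell with H2O2 by 0.40 (SE 0.09) and 0.23 (SE 0.09), and was higher in untreated TβRII-/- PT cells by 0.21 (SE 0.09). In all, 2 of the 3 were higher untreated and 3 with H2O2 in TβRII-/- PT cells (medians 0.21 and 0.40), against 33.3% and 35.1% of all genes. With H2O2, 2 were lower in each genotype (medians -0.40 and -0.25), against 20.5% and 19.1%.

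Of 9 Bag proteins and other regulators of Hsp70, 3 were higher in untreated TβRII-/- PT cells (median 0.08) and 6 with H2O2 (median 0.22), and the others were not called. The untreated count is at the 33.3% of all genes, and the share with H2O2 over all genes was 35.1%. St13, the Hsp70-interacting protein Hip, was at 0.47 (SE 0.07) and 0.65 (SE 0.07), and the exchange factor Hspbp1 at 0.31 (SE 0.10) and 0.55 (SE 0.10). With H2O2, 6 fell in TβRII flox/flox (median -0.32) and 1 in TβRII-/- PT cells (median -0.11), against 20.5% and 19.1% of all genes. Bag2 fell by 0.43 (SE 0.07) and 0.21 (SE 0.06), and Bag1 fell by 0.41 (SE 0.07) in TβRII flox/flox PT cells. Bag3 itself, which is no member of this list, was lower between genotypes.

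Among 4 tested genes of other heat shock factors and Hsf1 regulators, 1 was higher in TβRII-/- PT cells, untreated and with H2O2 (medians -0.13 and -0.13), no more than the 33.3% and 35.1% of all genes. This was Hsf4, a heat shock factor known from the lens, with 5.26, 5.56 and 6.45 normalized counts in untreated TβRII flox/flox and 238, 213 and 205 in untreated TβRII-/- PT cells. The groups were far apart, at a log2 difference of 5.22 (SE 0.22, adjusted p = 9.83e-20) untreated and 4.58 (SE 0.19, adjusted p = 3.76e-20) with H2O2. In TβRII-/- PT cells it rose with H2O2 by 0.28 (SE 0.11) to 241, 270 and 283 normalized counts. The list otherwise had 1 gene lower with H2O2 in each genotype (medians -0.09 and -0.09), against 20.5% and 19.1% of all genes. This was Hsf2bp, which binds heat shock factor Hsf2 and is named here after its values were seen, at -1.17 (SE 0.47) in TβRII flox/flox and -1.39 (SE 0.53) in TβRII-/- PT cells, with a mean of only 9.92 counts per library.

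The TRiC chaperonin, the ring-shaped complex that folds actin and tubulin, fell with H2O2. All 8 genes were lower in TβRII flox/flox (median -0.38) and all 8 in TβRII-/- PT cells (median -0.32), where 20.5% and 19.1% of all genes were called lower. Examples were Cct8 at -0.43 (SE 0.06) and Cct3 at -0.41 (SE 0.07) in TβRII flox/flox, and Cct6a at -0.45 (SE 0.06) and Cct5 at -0.42 (SE 0.07) in TβRII-/- PT cells. Between genotypes 2 subunits were higher and 4 lower untreated (median -0.11) and again with H2O2 (median -0.09), and calls in both directions were common over all genes too (33.3% and 31.4% untreated, 35.1% and 31.3% with H2O2). Cct5 was higher at 0.49 (SE 0.07) and Cct8 lower at -0.45 (SE 0.06) in untreated TβRII-/- PT cells, and Cct5 was at 0.48 (SE 0.07) and Cct6a at 0.35 (SE 0.06) with H2O2.

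Chaperones of the organelles were described in the same way. Of 10 mitochondrial chaperones and proteases, 6 were higher untreated (median 0.22) and 5 with H2O2 (median 0.23) in TβRII-/- PT cells, against 33.3% and 35.1% of all genes. Dnaja3, the J protein of mitochondrial Hsp70, was at 0.89 (SE 0.06) and 1.05 (SE 0.06), and its exchange factor Grpel1 at 0.81 (SE 0.07) and 0.90 (SE 0.07). With H2O2, 1 rose and 5 fell in TβRII flox/flox (median -0.17), and 2 rose and 2 fell in TβRII-/- PT cells (median -0.08). Over all genes 21.0% rose and 20.5% fell in the former and 20.5% and 19.1% in the latter. Hsp60 (Hspd1) fell by 0.27 (SE 0.06) and 0.33 (SE 0.06), and its partner Hsp10 (Hspe1) by 0.30 (SE 0.08) and 0.30 (SE 0.08). Of 15 chaperones of the endoplasmic reticulum, 11 were lower and 1 higher untreated (median -0.46), and 12 were lower and 1 higher with H2O2 (median -0.72) in TβRII-/- PT cells, where 31.4% and 31.3% of all genes were lower. Hyou1, an Hsp110 relative, was at -1.09 (SE 0.07) and -1.36 (SE 0.07), and Dnajc3, an inhibitor of the kinase Perk, at -0.93 (SE 0.06) and -1.12 (SE 0.06).

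With H2O2, 4 of the endoplasmic reticulum genes rose in TβRII flox/flox PT cells (median 0.13), against 21.0% of all genes, led by Dnajb11 at 0.25 (SE 0.07) and Hyou1 at 0.25 (SE 0.07). In TβRII-/- PT cells 5 fell (median -0.15), against 19.1% of all genes, led by Creld2 at -0.28 (SE 0.07) and Pdia6 at -0.26 (SE 0.07). The interaction was called lower for 2 of the 15 and for 6.28% of all genes. These 2 were Creld2 at -0.41 (SE 0.10) and Hspa5 (BiP) at -0.39 (SE 0.10). The median interaction was -0.25 for the endoplasmic reticulum list and 0.21 for the 10 genes, against 0.01 over all genes.

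**Figure D4:**
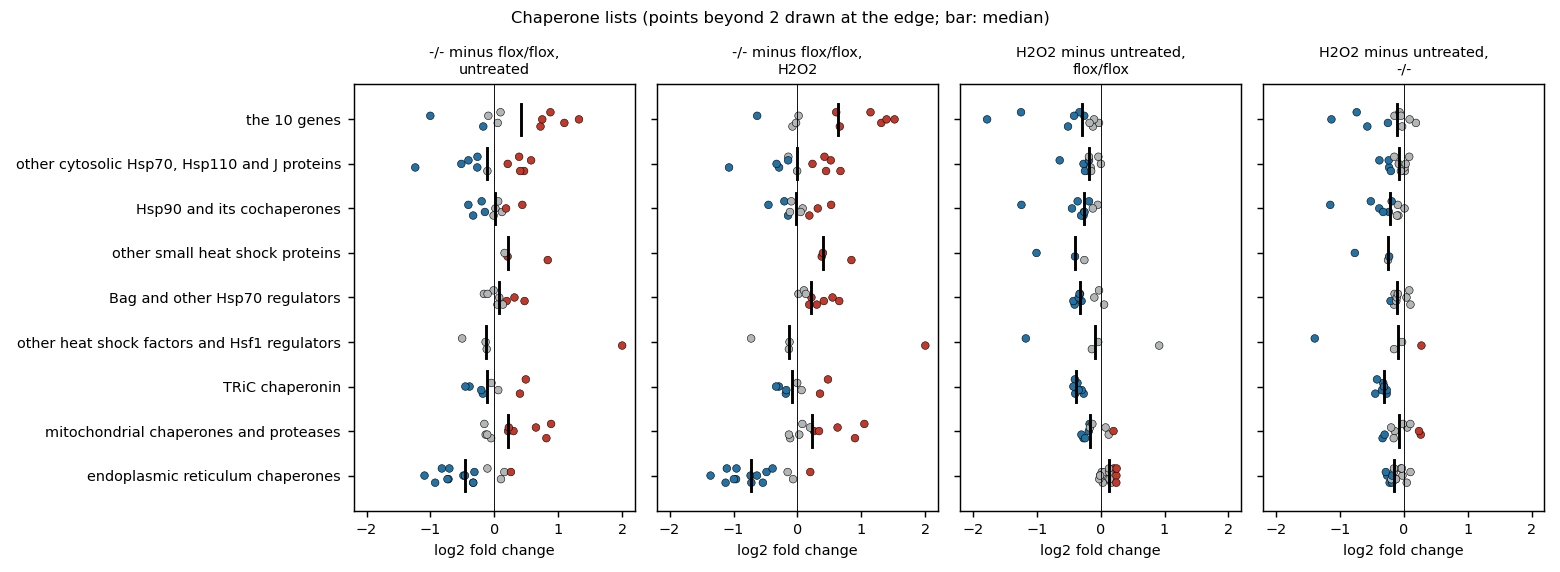
Log2 fold change of each tested gene of the 8 chaperone lists and of the 10 genes, in the 4 comparisons of groups, with a bar at each median. Red and blue mark genes called higher and lower, grey those not called, and values beyond 2 are drawn at the edge. The endoplasmic reticulum list has its median left of 0 in both genotype panels, where the 10 genes have medians of 0.41 and 0.63, and all 8 TRiC genes lie left of 0 in both H2O2 panels.

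For 4 of the genes the most similar patterns were sought as the highest Pearson correlation of log2 expression over the 12 libraries, which share the 4 group means, so the values describe the pattern only. Pitx1 (r = 0.988), Sart3 (0.988) and Misp3 (0.987) were nearest to Hspa1b, and Pitx1 was at 0 in all 6 TβRII flox/flox libraries. Ran (0.994), Anxa3 (0.991) and Sdcbp (0.988) were nearest to Hsp90aa1, and Zhx3 (0.987), Frmd4b (0.984) and Prss35 (0.981) to Hspb1. Zbtb16 (0.988), Lgals1 (0.986) and Coro1c (0.986) were nearest to Cryab. Zbtb16, a transcription factor known as a glucocorticoid target, changed with H2O2 by -3.89 (SE 0.11) in TβRII flox/flox and by -2.08 (SE 0.08) in TβRII-/- PT cells on the log2 scale, while Cryab changed by -1.25 and -0.74.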

How the data were processed

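RNA was measured in 12 libraries. The authors trimmed the reads with fastp, used STAR for alignment to GRCm38.p6 (GENCODE M23) and featureCounts for counting, and deposited raw counts as whole numbers. These are given for each transcript, so a read enters every transcript that it overlaps: sums over transcripts were 3.20 to 3.32 times the gene totals. Identifiers of 104820 of 106332 transcripts matched GENCODE M39. The 1512 others, with 1.22% to 1.28% of a library's counts, were not used. In each gene the transcript with the highest total was used. Tests were run with edgeR 4.0.16 in R 4.3.3 (TMM, filterByExpr, glmQLFit and glmQLFTest, 1 mean per group, all 12 libraries, two-sided), with Benjamini-Hochberg adjustment over all genes tested. Normalized counts are counts divided by the effective library size and multiplied by the mean effective library size.

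The 10 genes, the lists and the tests were chosen with earlier results of these data known. Besides the 10 genes, the text names per list and comparison the 2 called genes with the largest change and a mean of at least 10 counts, the 3 genes nearest in pattern to Hspa1b, Hsp90aa1, Hspb1 and Cryab, Tgfbr2 and markers. Alternatives were DESeq2 1.42.0, its size factors in edgeR, no filter, at least 10 counts in every library, a replicate block, sums over transcripts, the longest transcript, only the groups compared, the limits of the study (unadjusted p of 0.01, fold change of 1.5) and leaving out each library. Scaling by library totals alone and the sum of Hspa1a and Hspa1b were added after the data were seen. Simulated counts served to check the tests. Promoters and positions are from RefSeq tables of GRCm38.p6. Transcripts were compared within GENCODE M39, on both strands, with Python 3.11.15. The labels name a Qiagen kit for RNA extraction, and the methods of the study a Macherey-Nagel kit.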

Additional observations from a re-analysis of the deposited data

Results flagged for a closer look

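The effect of H2O2 differed between genotypes, by the interaction term of edgeR's quasi-likelihood test, for 3 of the 10 genes. The difference (TβRII-/- minus TβRII flox/flox, log2) was 0.51 for Cryab, 0.37 for Bag3 and 0.64 for Hspb1. Cryab and Bag3 kept the call in all 20 alternatives that kept the limit of 0.05 on the adjusted p, with an adjusted p of at most 0.00303 and 0.0475, and Hspb1 kept it in 9 of 20. At the limits of the study (unadjusted p of 0.01, fold change of 1.5) only Hspb1 of the 3 was called. Proximal tubule markers summed to 27441 to 33209 and 35108 to 37913 normalized counts without and with H2O2 in floxed cells. In TβRII-/- PT cells the sums were 21054 to 22512 and 21442 to 22890. The markers did not move together. With H2O2 in floxed cells mean Aqp1 rose from 7103 to 14611, and mean Pax8 fell from 5223 to 4182. The part of these markers in the differences of the 3 genes was not tested.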

How the results depend on the processing

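Of the 27 calls made for the 10 genes over the 5 comparisons, 25 kept direction and call under every alternative that kept the limit of 0.05 on the adjusted p; the exceptions were Hsf1 between untreated genotypes and the interaction of Hspb1. The limits of the study, which leave out fold changes under 1.5, took away more calls: 5 genes were higher and 1 lower between untreated genotypes, 6 and 1 with H2O2, 2 (Hspb1 and Cryab) were lower with H2O2 in each genotype and 1 (Hspb1) had a called interaction. Scaling by library totals alone took the median of all genes between genotypes from 0.01 to 0.10 untreated and from 0.02 to 0.17 with H2O2 on the log2 scale, and gave 6 genes higher and 1 lower untreated. Calls were gained for Cryab between untreated genotypes (0.19) and Hspa8 between genotypes with H2O2 (0.17). With it, log2 differences that had not been called changed sign: Hsf1 (0.071) and Dnajb1 (0.13) between genotypes with H2O2, and Hsf1 (0.020) and Bag3 (0.0013) for H2O2 in TβRII-/- PT cells. Sums over transcripts gave -0.015 for Hspa8 between genotypes with H2O2. Leaving out 1 library changed the sign of uncalled differences with ranges of -0.0030 to 0.15 (Dnajb1, untreated genotypes), -0.045 to 0.043 (Hspa8, genotypes with H2O2), -0.099 to 0.011 (Dnajb1, the same), -0.20 to 0.094 (Hspa1a, H2O2 in TβRII flox/flox), -0.046 to 0.011 (Hsf1, H2O2 in TβRII-/-) and -0.037 to 0.23 (Hspa1b, the same). Same-numbered replicates did not deviate together over all genes (r of -0.083 to 0.054 in 18 pairs, 0 over 0.1). Pairing by number in a part of the genes was not tested. With the replicate number as a block 7, 7, 6, 4 and 3 genes were called, as without it. A fit of only the groups compared does not apply to the interaction. Hspa1a had at most 52 counts in a library, and 56.5% of its 100-base stretches also occur in other genes. The parts of depth and of shared reads in this low count were not tested.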

Other observations

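Among the genes nearest to Cryab and among the Hsp90 co-chaperones were known glucocorticoid targets, and the complete medium contains hydrocortisone. Such targets were therefore read out, a choice made after the values of Fkbp5 and Zbtb16 were seen. Fkbp5, Zbtb16, Tsc22d3 (Gilz), Klf9, Per1 and Sgk1 all fell with H2O2 in serum-free medium, in both genotypes. Over all genes 20.5% were called lower in TβRII flox/flox and 19.1% in TβRII-/- PT cells. In TβRII flox/flox PT cells the log2 changes were -1.24 for Fkbp5, -3.89 for Zbtb16, -1.75 for Tsc22d3, -0.77 for Klf9, -1.75 for Per1 and -1.93 for Sgk1. In TβRII-/- PT cells they were -1.15, -2.08, -1.68, -0.53, -1.54 and -3.03 in the same order. The groups did not overlap for any of the 6, and the share of all genes without overlap was not computed. The interaction was called for Zbtb16 at 1.81 (SE 0.15, adjusted p = 4.32e-10 in edgeR's quasi-likelihood test) and for Sgk1 at -1.10 (SE 0.12, adjusted p = 2.93e-07). Whether the serum-free medium held hydrocortisone is not given in the sources used here. The parts of hydrocortisone and of serum withdrawal in these changes were not tested.

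Sgk1 was at 646, 679 and 712 normalized counts in untreated TβRII flox/flox and at 1347, 1374 and 1307 in untreated TβRII-/- PT cells, higher in each TβRII-/- library (log2 0.98, SE 0.07). With H2O2 the genotypes overlapped, at 179, 158 and 201 and at 177, 155 and 162.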
